A study of Mus musculus with 7 samples.

Results

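Cadherins are calcium-dependent adhesion proteins of the cell surface, and 34 genes of the mouse cadherin superfamily are described here: 23 named Cdh plus a number and 11 named Pcdh plus a number. They were taken by a rule on the symbol from 48321 genes listed in the files of all 7 libraries, of which 31222 had a count in any. The family itself was chosen with earlier results of these data known. The clustered protocadherins (Pcdha, Pcdhb and Pcdhg) were left out, as was Pcdh11x, whose symbol ends in a letter. The RNA was that of the ventrolateral ventromedial hypothalamus, a region with many estrogen receptor neurons, microdissected manually. All mice were ovariectomized females on a mixed background, their stock going back to a floxed Esr1 line of 129/Sv lineage. The vehicle group held 3 mice and the estradiol benzoate (EB) group held 4, which had received 1 µg of this estradiol ester under the skin; tissue was taken 4 hours after injection in both, and each library is 1 mouse. The labels do not state the Esr1 genotype of these mice or their ages.

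Classical cadherins bind cadherins on the neighbouring cell through their outermost repeats and hold the actin cytoskeleton through catenins. Type I members (E-, N-, P- and R-cadherin) and type II members (such as Cdh6 to Cdh12) differ in how these outer repeats dock. In the brain, type II cadherins mark particular nuclei and help axons and synapses find their partners. Delta protocadherins adhere more weakly, do not bind beta-catenin, and through their tails reach the WAVE actin complex (delta-2) or protein phosphatase 1 (delta-1).

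Pcdh20 and Cdh10 were the 2 members called lower with EB at an adjusted p under 0.05, and no member was called higher. Among all 18387 tested genes 0.919% were called, 131 higher and 38 lower, so the lack of higher members says little. Pcdh20 lies on the minus strand at chr14:88464743-88471396 and Cdh10 on the plus strand at chr15:18818947-19014236 (GRCm38, the assembly also called mm10). The 250 bases before each start site annotated by RefSeq (GRCm38.p6) are shown because these are the genes whose change passed the test. The Pcdh20 stretch is chr14:88471397-88471646, minus strand, and the Cdh10 stretch is chr15:18820079-18820328, plus strand, inside the gene's longest annotated span and outside any annotated exon. Capitals mark the letters CCAAT, found by a match of letters only.

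Pcdh20: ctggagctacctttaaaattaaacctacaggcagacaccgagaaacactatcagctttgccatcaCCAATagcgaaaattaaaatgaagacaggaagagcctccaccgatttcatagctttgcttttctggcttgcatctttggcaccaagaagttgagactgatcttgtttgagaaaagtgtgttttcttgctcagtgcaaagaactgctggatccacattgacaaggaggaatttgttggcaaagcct

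Cdh10: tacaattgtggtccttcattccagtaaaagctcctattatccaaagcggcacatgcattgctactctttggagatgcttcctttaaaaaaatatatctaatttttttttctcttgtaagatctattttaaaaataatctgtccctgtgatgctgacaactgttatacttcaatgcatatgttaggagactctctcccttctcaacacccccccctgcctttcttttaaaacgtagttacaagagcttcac

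Both stretches are poor in G and C. Their GC content is 42.4% for Pcdh20 and 36.8% for Cdh10, against a median of 52.4% over all 32851 RefSeq promoters and 58.4% over the 25 promoters of the 22 members in that table. Each promoter window of 300 bases (250 before and 50 after the start) was searched on both strands for 4 motifs. The full estrogen response element, GGTCA and TGACC parted by any 3 bases, was in 0 of the 25 member promoters and in 0.0700% of all promoters. Its single arm AGGTCA was in 1 member promoter, that of Cdh18, which is 4.00%, and in 16.3% of all. The letters CCAAT were in 17 member promoters (68.0%), those of Pcdh20 and Cdh9 included, and in 37.4% of all. The E-box CAGGTG, a binding sequence of the Snai and Zeb repressors, was in 5 member promoters of 3 genes (Cdh7, Pcdh7 and Pcdh15) and in 20.2% of all. The windows of Pcdh20 and Cdh10 hold neither the letters of the full element nor AGGTCA nor that E-box, which says nothing of sites elsewhere.

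Library totals ran from 21037303 to 33302293 counts, and values are CPM (counts per 1000000 counts of the library) after TMM scaling, unless another scale is named. The members together took 2961 to 3570 CPM in each library. Of the 34 members 31 passed the filter on low counts and were tested. The exceptions are Cdh3 (P-cadherin), Cdh16 (a kidney cadherin) and Pcdh12 (an endothelial protocadherin), with 8, 1 and 6 counts over all 7 libraries. Pcdh12 had 3 counts in vehicle 1, 3 in EB 1 and 0 in the other mice. Cdh16 had 0 counts in all 3 vehicle libraries, which allows up to 3 counts, or 0.0950 to 0.132 CPM; this limit covers counting error only.

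Delta protocadherins made up most of the family's counts. Levels of different genes are compared here as CPM per kilobase of exon. Pcdh17, a delta-2 protocadherin of synapses, stood highest: the vehicle mice were at 58.2, 82.1 and 62.9 CPM per kb and the EB mice at 63.4, 57.1, 66.8 and 58.5. Vehicle 2 was the high mouse and the groups overlapped. By CPM, Pcdh17 alone accounted for 26.3% of the members' total in vehicle, and the 5 members highest by CPM, all of them delta protocadherins (Pcdh17, Pcdh19, Pcdh7, Pcdh10 and Pcdh9), for 69.1%.

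Pcdh19, the X-linked protocadherin mutated in a female-limited epilepsy, followed at 39.6, 47.2 and 45.3 CPM per kb with vehicle and 43.4, 39.4, 44.8 and 37.4 with EB; an antisense gene model, Gm26851, overlaps its exons. Pcdh7, a delta-1 protocadherin, stood at 42.2, 44.0 and 44.0 CPM per kb with vehicle and 42.9, 40.9, 39.9 and 37.7 with EB; the antisense model 4932441J04Rik overlaps its exons. The vehicle ranges of Pcdh19 and Pcdh7 overlapped, so the order of these neighbours is not set by these mice. Pcdh9, another delta-1 member, was at 38.5, 36.4 and 36.8 CPM per kb with vehicle and 35.0, 36.4, 34.1 and 34.7 with EB. The highest type II cadherin was Cdh18, at 25.8, 26.2 and 29.6 CPM per kb with vehicle and 30.9, 31.6, 27.4 and 26.9 with EB. The levels of Pcdh7, Pcdh9 and Cdh18 were separate from each other in the vehicle mice.

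Cdh2 (N-cadherin, 18.4 ± 1.146 CPM per kb, SD, n = 3), Cdh13 (T-cadherin, held in the membrane by a lipid anchor, 16.8 ± 1.07) and Pcdh10 (16.1 ± 0.250) came next. Of the 33 neighbouring pairs in the order of vehicle levels, 24 had overlapping ranges. Pcdh20 ranked 12th at 8.09 ± 0.527 and Cdh10 ranked 17th at 3.92 ± 0.114 CPM per kb. The Cdh10 level depends on the length used, since the longest annotated transcript (3765 bases) is far shorter than all exons joined (10051 bases) and gives 10.5 CPM per kb. Cdh18 likewise stood at 45.1 CPM per kb of its longest transcript. By that length Cdh13, at 41.3, would take a place among the first 5 in place of Pcdh9, at 38.7.

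**Figure D1:**
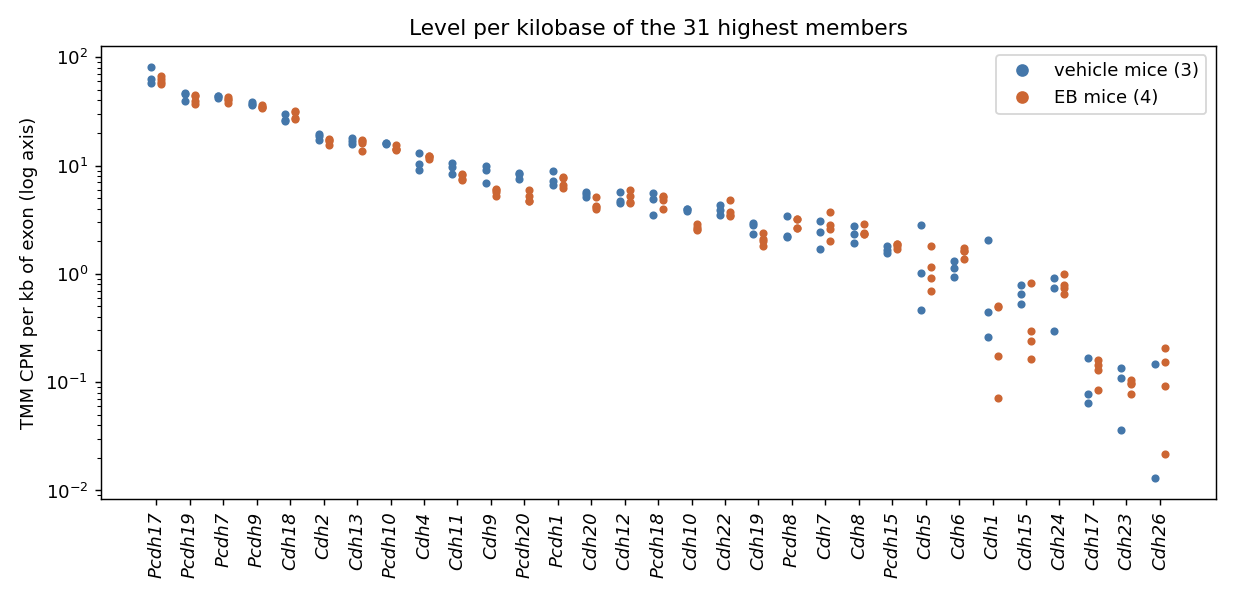
TMM CPM per kilobase of exon on a log axis for the 31 highest members, ordered by their vehicle mean; each point is 1 mouse, and mice at 0 are not drawn. Levels run from Pcdh17 near the top, with vehicle mice at 58.2 to 82.1, down to Cdh26, and the colours of vehicle and EB mostly mix.

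Pcdh20 was lower in every EB mouse than in any vehicle mouse. This protocadherin outside the clustered and delta families stood at 46.5, 45.6 and 41.1 CPM with vehicle and at 28.9, 25.7, 32.6 and 26.1 CPM with EB. Its mean went from 44.4 ± 2.90 (SD, n = 3) to 28.3 ± 3.19 CPM (SD, n = 4), 1.57-fold lower, with a log2 change of −0.65 ± 0.11 (SE) and an adjusted p of 0.00829. The counts behind these values were 934 to 1441 with vehicle and 633 to 885 with EB. Scaled by library totals alone the groups remained apart (39.9, 46.6 and 44.4 against 26.6, 25.8, 33.9 and 28.4 CPM by library total), but the adjusted p was 0.0516. With vehicle 1 and EB 4 both left out it was 0.0849, with a log2 change of −0.58.

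Cdh10, a type II cadherin, was also lower in every EB mouse. Vehicle mice were at 38.1, 40.0 and 40.2 CPM, a spread of 2.92% of their mean, and EB mice were at 26.1, 28.9, 25.7 and 27.5 CPM. The log2 change was −0.54 ± 0.09 (SE; adjusted p = 0.0104), or 1.46-fold lower, from 39.4 ± 1.150 (SD, n = 3) to 27.0 ± 1.48 CPM (SD, n = 4). The call ended without vehicle 3 (adjusted p = 0.0727), without EB 1 (0.0538), with vehicle 1 and EB 4 both left out (0.0547) and under library totals alone (0.223), while the log2 change stayed between −0.58 and −0.51 over all fits.

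Cdh9, a type II cadherin known from hippocampal mossy fibre synapses, did not pass over all genes. Its vehicle mice were at 24.3, 35.0 and 31.9 CPM and its EB mice at 21.2, 21.5, 20.1 and 18.5 CPM, so the groups did not overlap and vehicle 1 lay nearest to the EB mice. The log2 change was −0.58 ± 0.13 (SE), with an adjusted p of 0.0669. Cdh9 passed by DESeq2 (adjusted p = 0.00360), without vehicle 1 (0.0157, log2 −0.72), with vehicle 1 and EB 4 both left out (0.0384) and under both other filters (0.0133 and 0.04997), but not by limma-voom (0.106). By library totals alone vehicle 1 lay among the EB mice, at 20.9 against 19.5 to 21.7 CPM by library total. An antisense gene model, Gm49127, shares exon sequence with Cdh9, and the use of strand in counting is not given in the sources used here.

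**Figure D2:**
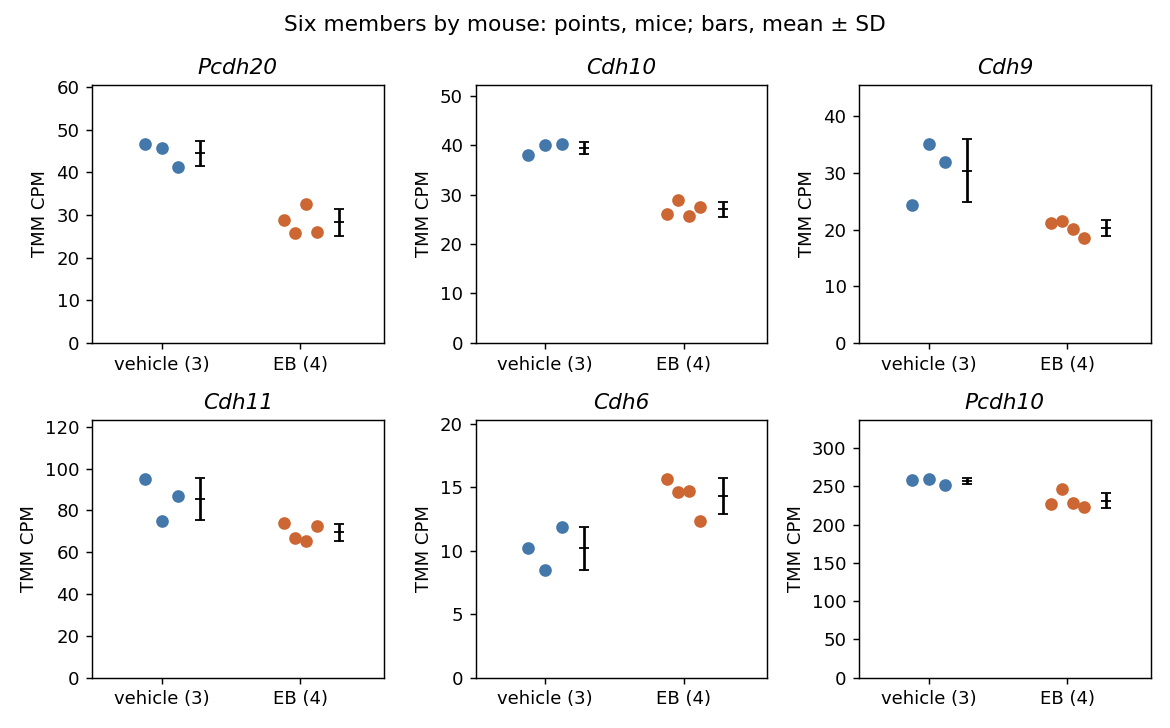
TMM CPM by mouse for Pcdh20, Cdh10, Cdh9, Cdh11, Cdh6 and Pcdh10, with vehicle (3 mice) in blue, EB (4 mice) in orange, and mean ± SD in black; every axis starts at 0. EB mice lie below the vehicle mice in 5 panels and above them for Cdh6, and only Pcdh20 and Cdh10 passed the test over all genes.

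Over all genes tested, 169 of 18387 passed at an adjusted p under 0.05 (0.919%), 131 higher and 38 lower. Among the 31 tested members 2 passed, both lower (6.45%). An unadjusted p under 0.05 was reached by 8 members, 1 higher and 7 lower (25.8%), against 8.54% of all tested genes. The groups did not overlap for 7 members, 1 higher and 6 lower (22.6%), against 9.10% of all tested genes. The median log2 change was −0.09 over the tested members and −0.01 over all tested genes, and 18 of the 31 changes were negative. These counts describe a family chosen with earlier results of these data known, and were given no test of their own. For increases, 0 members were called by edgeR, DESeq2 or limma-voom.

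**Figure D3:**
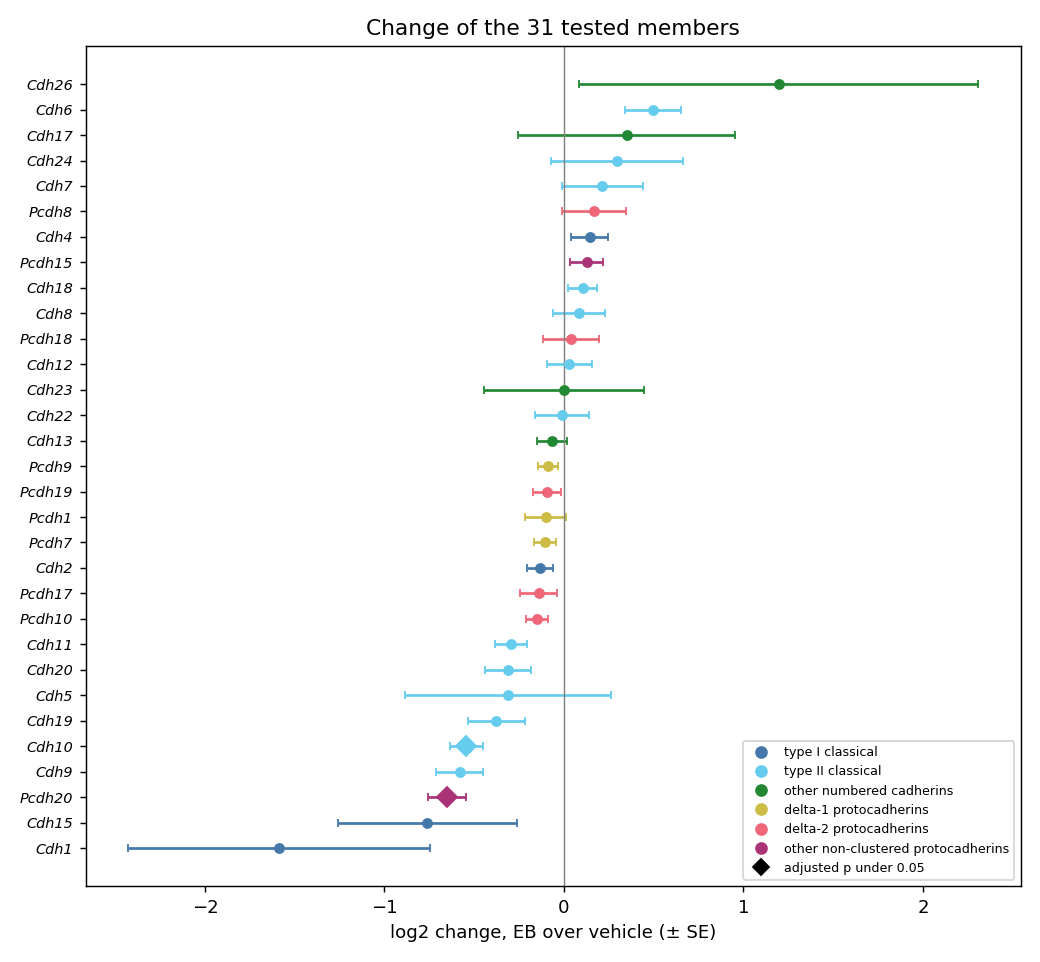
Log2 change of EB over vehicle for the 31 tested members with standard errors, coloured by subfamily; diamonds mark an adjusted p under 0.05. Pcdh20 (−0.65) and Cdh10 (−0.54) are the diamonds, and the widest bars belong to Cdh1 and Cdh26.

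Type II cadherins held 6 of the 8 members with an unadjusted p under 0.05, 1 higher and 5 lower, among 13 tested. This is 46.2% of those tested, against 8.54% of all tested genes, and only 1 of the 13, Cdh10, was called. The subfamily was given no test as a set, and the family was chosen with earlier results known. Cdh6, Cdh9 and Cdh10 are known to prefer binding one another, and their estimates went in different directions. Cdh6 was at 10.2, 8.49 and 11.8 CPM with vehicle and 15.6, 14.6, 14.7 and 12.3 CPM with EB, a log2 change of 0.49 ± 0.16 (SE) that did not pass (adjusted p = 0.266). All EB mice were above all vehicle mice, also under library totals alone. Cdh11, the mesenchymal OB-cadherin that neurons also make, was at 94.9, 74.7 and 86.7 CPM with vehicle and 73.8, 66.9, 65.1 and 72.4 CPM with EB. Its groups lay apart by less than 1 CPM and overlapped under library totals alone; the log2 change of −0.30 ± 0.09 had an adjusted p of 0.237.

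Cdh20 was at 20.4, 21.98 and 22.9 CPM with vehicle and 16.5, 20.8, 15.8 and 17.0 CPM with EB, with EB 2 inside the vehicle range (log2 −0.31 ± 0.13, adjusted p = 0.491). Cdh19, known in Schwann cells and other glia, was at 9.91, 12.6 and 12.02 CPM with vehicle and 7.68, 10.2, 8.64 and 8.97 CPM with EB. Here too EB 2 overlapped the lowest vehicle mouse (log2 −0.38 ± 0.16, adjusted p = 0.523). The other type II cadherins were Cdh7 (log2 0.21), Cdh8 (0.09), Cdh12 (0.03), Cdh18 (0.10), Cdh22 (−0.01), Cdh24 (0.29) and the endothelial Cdh5 (−0.31), with adjusted p from 0.824 to 0.993. The signs of Cdh5, Cdh8, Cdh12, Cdh22 and Cdh24 changed when single mice were left out, and a same-strand gene model, Gm49685, shares exon sequence with Cdh12.

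Members that share chromosome 15, 14, 1 or 8 had estimates of either sign, and other chromosomes are left out here. On chromosome 15, Cdh6 (log2 0.49), Cdh9 (−0.58), Cdh10 (−0.54), Cdh12 (0.03) and Cdh18 (0.10) follow in this order. Cdh9 and Cdh10 are 1.96 Mb apart, and Cdh10 and Cdh12 1.44 Mb. On chromosome 14, Pcdh20 (−0.65) sits 3.93 Mb from Pcdh17 (−0.14) and 4.54 Mb from Pcdh9 (−0.09), and Pcdh8 (0.17) lies beyond Pcdh17. On chromosome 1, Cdh20 (−0.31), Cdh7 (0.21) and Cdh19 (−0.38) follow in order. On chromosome 8, the tested members in order are Cdh8 (0.09), Cdh11 (−0.30), Cdh5 (−0.31), Cdh1 (−1.59), Cdh13 (−0.07) and Cdh15 (−0.76), all negative but Cdh8. Whether neighbours differ from each other was not tested.

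Delta protocadherins, the most abundant members, had small estimates. Of 8 tested, 6 had negative estimates (Pcdh17 and Pcdh1 among them, whose sign rests on vehicle 2). With any of edgeR, limma-voom and DESeq2 0 were called, and 1 (Pcdh10) reached an unadjusted p under 0.05. Over all tested genes 0.919% were called by edgeR and 8.54% reached that p, so these counts say little of 8 genes. Pcdh10, also called OL-protocadherin, was at 258, 259 and 252 CPM with vehicle and 227, 246, 228 and 223 CPM with EB. The groups did not overlap, but the log2 change was only −0.15 ± 0.06 (adjusted p = 0.458), and they overlapped under library totals alone. Part of Pcdh10 is covered by an antisense gene model, 1700027H10Rik.

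Pcdh9 had the other separate groups of this kind, at 261, 246.7 and 249.8 CPM with vehicle and 237, 246.6, 231 and 235 CPM with EB (log2 −0.09 ± 0.06, adjusted p = 0.767). The nearest mice of the 2 groups, vehicle 2 and EB 2, differed by under 0.1 CPM, and the groups overlapped under library totals alone. Pcdh17 (log2 −0.14 ± 0.10), Pcdh19 (−0.09 ± 0.08), Pcdh7 (−0.10 ± 0.06) and Pcdh1 (−0.10 ± 0.11) had small negative estimates with overlapping groups. Without vehicle 2 those of Pcdh17 and Pcdh1 turned to 0.021 and 0.031. Pcdh8, or arcadlin, a protocadherin induced by neuronal activity, was at 11.8 ± 3.12 and 13.2 ± 1.45 CPM (log2 0.17 ± 0.18), and shares exon sequence with the antisense model Gm9748. Pcdh18 was at 26.5, 18.8 and 29.9 CPM with vehicle and 28.1, 27.7, 21.1 and 25.8 CPM with EB (log2 0.04 ± 0.16), with its sign changing when vehicle 2, EB 1 or EB 2 was left out.

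Type I cadherins gave 0 calls with any of edgeR, limma-voom and DESeq2, and 0 of 4 tested had an unadjusted p under 0.05. Over all tested genes these shares were 0.919% (by edgeR) and 8.54%, so 0 of 4 says little of this subfamily. Cdh2 was at 139, 157 and 150 CPM with vehicle and 139, 143, 135 and 124 CPM with EB (log2 −0.13 ± 0.07, adjusted p = 0.679). Cdh4, or R-cadherin, was at 66.5, 95.0 and 75.7 CPM with vehicle and 89.3, 83.5, 89.0 and 87.9 CPM with EB (log2 0.14 ± 0.10, adjusted p = 0.801). In both the groups overlapped. Cdh15, or M-cadherin, was at 2.57, 1.71 and 2.11 CPM with vehicle and 0.784, 2.68, 0.969 and 0.535 CPM with EB, where EB 2 stood above all vehicle mice (log2 −0.76 ± 0.50, adjusted p = 0.767).

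Cdh23 and Pcdh15, which together form the tip links of hair cells, gave no call. Pcdh15 was the more abundant, at 43.1, 36.7 and 39.1 CPM with vehicle and 44.7, 45.2, 40.4 and 42.8 CPM with EB (log2 0.13 ± 0.09, adjusted p = 0.800). Cdh23 had 14 to 72 counts a library and a log2 change of 0.00 ± 0.45, with a sign that changed in 7 other fits. Cdh13 was at 189 ± 12.03 and 180 ± 18.1 CPM (log2 −0.07 ± 0.08; 0.0023 without EB 3). Cdh17, an intestinal cadherin, had 9 to 22 counts a library (log2 0.35 ± 0.60). Cdh26 had 0 to 15, with vehicle mice at 0.0389, 0 and 0.440 CPM and EB mice at 0.0653, 0.277, 0.463 and 0.617 CPM (log2 1.20 ± 1.11). The standard errors of Cdh17 and Cdh26 were nearly as large as their estimates or larger, and without vehicle 3 the Cdh26 estimate was 3.99.

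Vehicle 1 stood far above the other vehicle mice for Cdh1 and Cdh5. E-cadherin, Cdh1, an epithelial cadherin, was at 9.48, 2.03 and 1.19 CPM with vehicle and 0.327, 0.801, 2.27 and 2.30 CPM with EB (log2 −1.59 ± 0.84, adjusted p = 0.699). VE-cadherin, Cdh5, which joins endothelial cells, was at 11.8, 1.93 and 4.27 CPM with vehicle and 2.94, 3.88, 4.89 and 7.61 CPM with EB. Vehicle 1 was the highest of all mice for both. Without it the Cdh1 estimate went from −1.59 to −0.20, and with EB 4 also left out it was −0.53. The Cdh5 estimate of −0.31 turned to 0.64 without vehicle 1, to 0.34 with vehicle 1 and EB 4 both left out, and to 0.01 by limma-voom. The summed CPM of 10 mural and fibroblast markers was 681 in vehicle 1, 177 and 274 in vehicle 2 and 3, and 190 to 412 with EB. For 8 endothelial markers it was 139 in vehicle 1, 98.2 and 112 in vehicle 2 and 3, and 81.2 to 108 with EB. Their part in the Cdh1 and Cdh5 values was not tested.

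**Figure D4:**
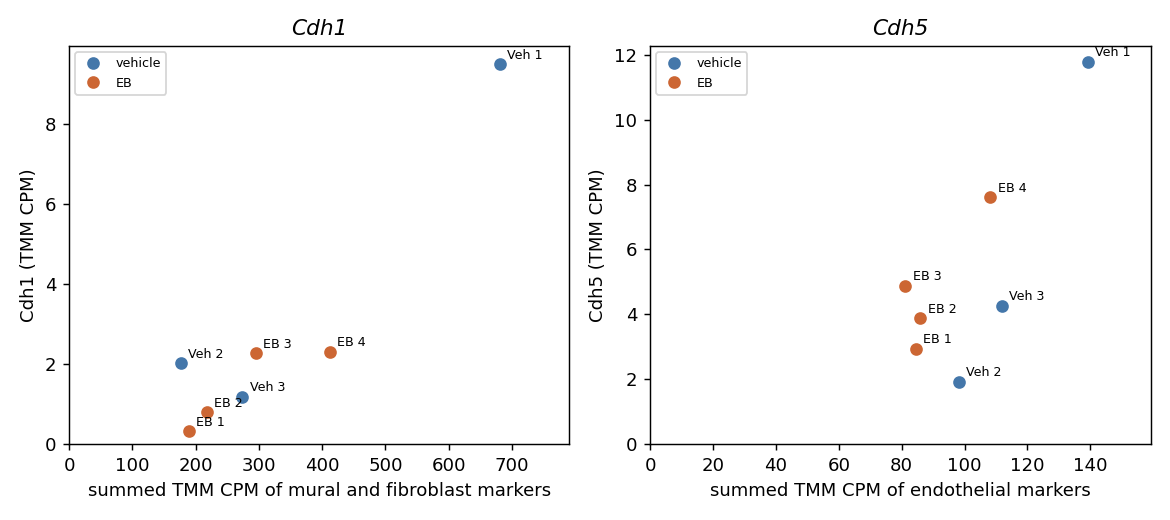
Cdh1 against the summed TMM CPM of 10 mural and fibroblast markers (left) and Cdh5 against that of 8 endothelial markers (right), 1 labelled point a mouse, vehicle in blue and EB in orange. Vehicle 1 is the upper right point of both panels, at 9.48 CPM of Cdh1 and 11.8 CPM of Cdh5.

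All 6 markers listed for the ventromedial hypothalamus had counts in every library, which alone does not place the dissection. Their summed level was 802 to 1125 CPM with vehicle and 951 to 1094 with EB. Fezf1 was at 140 ± 9.53 and 128 ± 18.2 CPM, whereas Nr5a1 was at only 2.03 ± 1.02 and 2.52 ± 1.11 CPM. Sox14 was likewise low, at 1.77 ± 0.843 and 2.74 ± 1.05 CPM. The largest part of the sum was Slc17a6, at 500 ± 61.3 and 633 ± 55.6 CPM, higher in every EB mouse (log2 0.34 ± 0.09, adjusted p = 0.132). Nkx2-1 went the other way (log2 −0.56 ± 0.21, adjusted p = 0.485), and 3 of the 6 estimates were negative. The summed levels overlapped between groups for 12 of 13 marker lists. The exception was microglia, with 6 markers summing to 131 to 138 CPM with vehicle and 110 to 129 CPM with EB. Of these, 4 had negative estimates, while Csf1r (log2 0.10) and Tmem119 (0.11) had positive ones. P2ry12 had the largest difference in CPM, from 41.3 ± 0.877 to 30.9 ± 3.72 (log2 −0.42 ± 0.11, adjusted p = 0.125). Within overlapping sums, 6 of 8 endothelial markers had negative estimates (median log2 −0.45), against 51.7% of all tested genes. So did 10 of 10 mural and fibroblast markers (median −0.32) and 6 of 6 astrocyte markers (median −0.15). Vehicle 1 was the highest vehicle mouse for each mural and fibroblast marker, and its sum was 681 CPM. Vehicle 2 and 3 were at 177 and 274 CPM, and EB mice at 190 to 412. Of other lists, amygdala, striatum and cortex had 5 negative of 6 tested (median −0.24), and arcuate 1 of 5 (median 0.53). The endothelial receptor Flt1 was at 56.2, 43.01 and 44.3 CPM with vehicle and 34.5, 34.2, 28.1 and 40.8 CPM with EB, lower in every EB mouse. Its log2 change of −0.48 ± 0.13 had an adjusted p of 0.168 by edgeR, 0.0277 by DESeq2 and 0.0381 with nearly no count filter. The transporter gene Abcb1a of the same list had a log2 change of −0.67 ± 0.19 and an adjusted p of 0.199, 0.0340 by DESeq2 and 0.0384 without EB 4. Kdr and Pecam1 of this list had positive estimates. Kdr was at 8.71, 7.25 and 9.73 CPM with vehicle and 10.1, 14.2, 8.68 and 14.9 CPM with EB. Its log2 change was 0.48 ± 0.20 (adjusted p = 0.523), and that of Pecam1 was 0.05 ± 0.35 (adjusted p = 0.987). Neuron markers (5) summed to 4346 to 4707 and 3998 to 5044 CPM, astrocyte markers (6) to 5446 to 6094 and 4705 to 5940, and arcuate markers (6) to 37.7 to 48.2 and 27.4 to 69.3. Thalamus and zona incerta markers (4) summed to 213 to 248 CPM with vehicle and 213 to 253 with EB. Those of amygdala, striatum and cortex (6) summed to 235 to 256 and 201 to 261 CPM. Pituitary markers (6) ran from 21.1 to 37.1 and from 21.2 to 64.8 CPM, the highest value being that of EB 4; Gh and Prl had counts in vehicle 3 and were at 0 in the other 6 mice. Of the 77 markers 71 were tested and 0 called by edgeR, against 0.919% of all tested genes. The part of these markers in the fall of Pcdh20 and Cdh10 was not tested, and in dissected tissue fewer cells of a type and less RNA per cell cannot be told apart.

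Partners of cadherins outside the family gave no call. From a list of 70 other superfamily members, catenins, nectins, WAVE subunits, sheddases and tip-link partners, 62 were tested and 0 passed with any of edgeR, limma-voom and DESeq2. As only 0.919% of all tested genes passed by edgeR, 0 of 62 says little of these partners. At an unadjusted p under 0.05 there were 3, 2 higher and 1 lower (4.84%), against 8.54% of all tested genes. Their median log2 change was −0.02. The smallest p among increases belonged to Magi1, a junctional scaffold, at 164, 161 and 173 CPM with vehicle and 182, 190, 173 and 184 CPM with EB (log2 0.13 ± 0.06, adjusted p = 0.580). Next was Ptpn1, a tyrosine phosphatase, at 10.8, 10.7 and 12.2 CPM with vehicle and 16.5, 15.3, 10.2 and 16.4 CPM with EB, where EB 3 was below all vehicle mice (log2 0.38 ± 0.17, adjusted p = 0.581). Dchs2, a giant cadherin of the Dachsous family, was at 19.4, 18.8 and 19.2 CPM with vehicle and 17.4, 16.0, 14.2 and 14.4 CPM with EB (−0.30 ± 0.12, adjusted p = 0.491). The desmosomal cadherin Dsc3, whose groups overlapped, went from 19.8 ± 2.65 to 15.9 ± 2.11 CPM (log2 −0.31 ± 0.14, adjusted p = 0.585). Catenins and other tail partners had 12 positive and 5 negative estimates among 17 tested, and the WAVE subunits and other protocadherin tail partners 2 positive and 9 negative among 11. Over all tested genes 51.7% were negative. The median absolute log2 change was 0.09 and 0.04 in these lists, against 0.15 over all tested genes. Neither list was tested as a set.

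**Figure D5:**
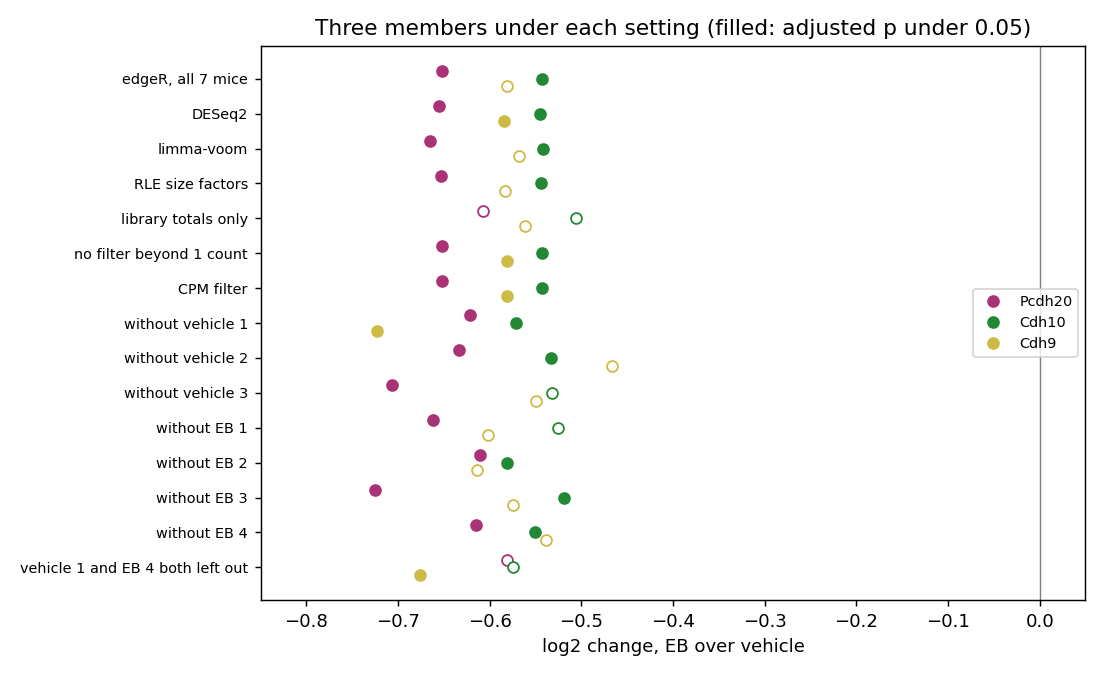
Log2 change of Pcdh20, Cdh10 and Cdh9 in the fit to all 7 mice and in 14 other fits; filled points have an adjusted p under 0.05 and open points do not. All estimates are negative, Pcdh20 from −0.73 to −0.58, Cdh10 from −0.58 to −0.51 and Cdh9 from −0.72 to −0.47, while the calls of each gene come and go with the setting.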

How the data were processed

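The deposited files hold raw, whole-number counts by gene, 1 file for each of 7 mice. HISAT2, HTSeq and DESeq2 and the build mm10 are named in the submitters' processing notes. Their versions, the annotation and the strand setting: not given in the sources used here. Libraries started from 15 ng of RNA, per the labels' protocols.

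Genes were filtered with filterByExpr (minimum count 10), given TMM factors and tested by the robust quasi-likelihood method of edgeR 4.0.16 in R 4.3.3, with no covariate; every adjusted p not credited to another tool is this test's, Benjamini-Hochberg over 18387 genes. A gene was called at an adjusted p under 0.05. The SE is the absolute log2 change over the square root of F. DESeq2 1.42.0 and limma 3.58.1 were alternatives. The test was checked on simulated counts. Replicate pairs differed by more than sampling noise (chi-square per degree of freedom 17.0 to 166). Vehicle 1 was at 166 against vehicle 2 and 156 against vehicle 3, while vehicle 2 and 3 were at 19.8. EB pairs ran from 17.0 to 102. Exon lengths and positions came from GENCODE M21, which holds all 34 members. Mice are numbered in deposit order within a group.

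The members and lists were chosen with earlier results of these data known. Per-mouse values were printed for called members, for the 5 smallest p in each direction, for the 5 highest per kb, for Pcdh20 and for members known from other cell types. For other members, mouse values were added after they were seen. Protein sequences were not analysed here.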

Additional observations from a re-analysis of the deposited data

Results flagged for a closer look

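Cdh8 in EB 2, at 22.1 CPM, stood apart from the other EB mice, the next of which was at 18.5 CPM. The gap was 0.892 of the group's whole range, above Dixon's critical value for 4 samples. Chance sets apart about 1 in 20 groups, and 31 members were looked at. An antisense gene model, Gm15679, shares exon sequence with Cdh8.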

How the results depend on the processing

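Counts of calls and log2 changes were recomputed under up to 15 other settings, and levels per kilobase under 2 (longest transcript and library totals). Leaving out vehicle 1 and EB 4 together was chosen after seeing the data. Cdh26 and Cdh17 were not tested, or had no adjusted p, in some fits. The number of called genes was 169, and 351 by DESeq2 (232 higher, 119 lower), and ran from 94 (without vehicle 3) to 159 when 1 mouse was left out. The number of called members was 0 under library totals alone and 1 with vehicle 1 and EB 4 both left out, and ran from 1 to 3 when 1 mouse was left out. For Pcdh20 the log2 change was −0.61 under library totals alone and −0.58 with vehicle 1 and EB 4 both left out, and not called in either; the cause was not tested. It was called without each mouse in turn.

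Of the 31 tested members 21 kept their sign throughout, and 10 reversed in 26 of 460 values in all. With 1 mouse left out, the lowest and highest log2 changes were −0.74 and 0.64 for Cdh5, −0.038 and 0.23 for Cdh8, −0.061 and 0.13 for Cdh12, −0.12 and 0.0023 for Cdh13, −0.13 and 0.054 for Cdh22, −0.38 and 0.36 for Cdh23, −0.059 and 0.62 for Cdh24, −0.20 and 0.031 for Pcdh1, −0.24 and 0.021 for Pcdh17, and −0.13 and 0.18 for Pcdh18. With vehicle 1 and EB 4 both left out Cdh5 was at 0.34 and Cdh22 at 0.11. Cdh5 was at 0.0105 by limma-voom, Cdh22 at 0.026 under library totals alone, and Cdh23 at −0.0038 by DESeq2, −0.00097 with RLE factors and −0.00043 with nearly no count filter. The pathway list had 0 calls under every setting. No paired analysis was possible because no label ties a vehicle mouse to an EB mouse. Depth limits Cdh3, Cdh16, Cdh17, Cdh26 and Pcdh12, all under 1 CPM in both group means.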
